A study of Mus musculus with 6 samples.

Results

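The glycolysis and hypoxia response genes comprise 38 genes, chosen by symbol, and all 38 were among the 16583 genes of the deposited table. They fall into 14 glycolytic enzymes, from hexokinase to lactate dehydrogenase, 23 other members of the hypoxia-inducible factor (HIF) pathway and Hif1a itself. Of the 38, 36 had enough counts to be tested, and Slc2a3 and Car12 did not. The libraries came from MC38, a mouse colorectal cancer line, in 3 control samples (KOCtrl) and 3 samples in which SRC-1, the nuclear receptor coactivator encoded by Ncoa1, was labelled as knocked out (KOSRC-1). Controls and knockouts alike had been given interferon gamma (100 ng/mL, 24 h), and no untreated cells were analysed here. The sources used here do not give whether the knockout cells were a clone or a pool, or whether replicates were separate cultures. The tests therefore weigh a difference against the scatter of these 6 samples, which may be technical.

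Glycolysis splits glucose into pyruvate in the cytosol, and lactate dehydrogenase turns that pyruvate into lactate, which leaves the cell through monocarboxylate transporters. HIF is a pair of proteins whose alpha subunit, encoded by Hif1a, is marked for destruction by the prolyl hydroxylases Egln1 and Egln3 when oxygen is present. When it is stable it raises many glycolytic genes and a wider set for oxygen-saving metabolism, mitophagy, collagen maturation, acid handling and vessel growth. Tumour cells often use this programme at ordinary oxygen as well. HIF-1 alpha is controlled mainly as a protein, which mRNA levels do not measure.

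Libraries held 16329459 to 17207625 expected counts. Ncoa1 mRNA stood at 18.0 to 18.5 CPM (counts scaled to a common library size) in controls and at 16.7, 10.1 and 16.1 CPM in knockouts 1, 2 and 3 (log2 fold change -0.35, edgeR adjusted p = 0.179), so it does not by itself check the labels. Titles name all 3 knockouts KOSRC-1, but the genotype labels of knockouts 2 and 3 are KOSRC-2 and KOSRC-3. Knockout 2 stood apart, correlating with knockouts 1 and 3 at 0.978 and 0.981 in log2 CPM across genes, against 0.996 between those 2 and 0.994 to 0.995 among controls. For several genes, results are therefore given with and without knockout 2. Epithelial markers were near 0 in this line labelled as colorectal cancer. The 8 measured (of 9 listed) summed to 1.17 to 1.48 CPM in controls and 0.761 to 1.08 CPM in knockouts, with Epcam at a mean of 0.0198 CPM in controls and at 0 in knockouts. The 6 leukocyte markers measured summed to 9.67 to 11.8 and 3.95 to 6.17 CPM, nearly all of it Cd68, and the 4 endothelial markers to under 1 CPM in every library. Their part in the results was not tested.

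Most of the tested genes of this programme were higher in the knockout. Of 36, 21 rose, 2 fell (Pfkp and Ndrg1) and 13 were not called at an adjusted p under 0.05. Across all 11656 tested genes 17.1% rose and 18.5% fell. The median log2 fold change of the 36 was 0.46, against 0.02 over all tested genes. Glycolytic enzymes and the other HIF pathway members both lay mostly on the higher side. Of the 14 enzymes, 7 rose, 1 fell and 6 were not called (median 0.30). Of the 21 other pathway members tested, 14 rose, 1 fell and 6 were not called (median 0.54). The difference between the 2 classes was not tested.

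**Figure D1:**
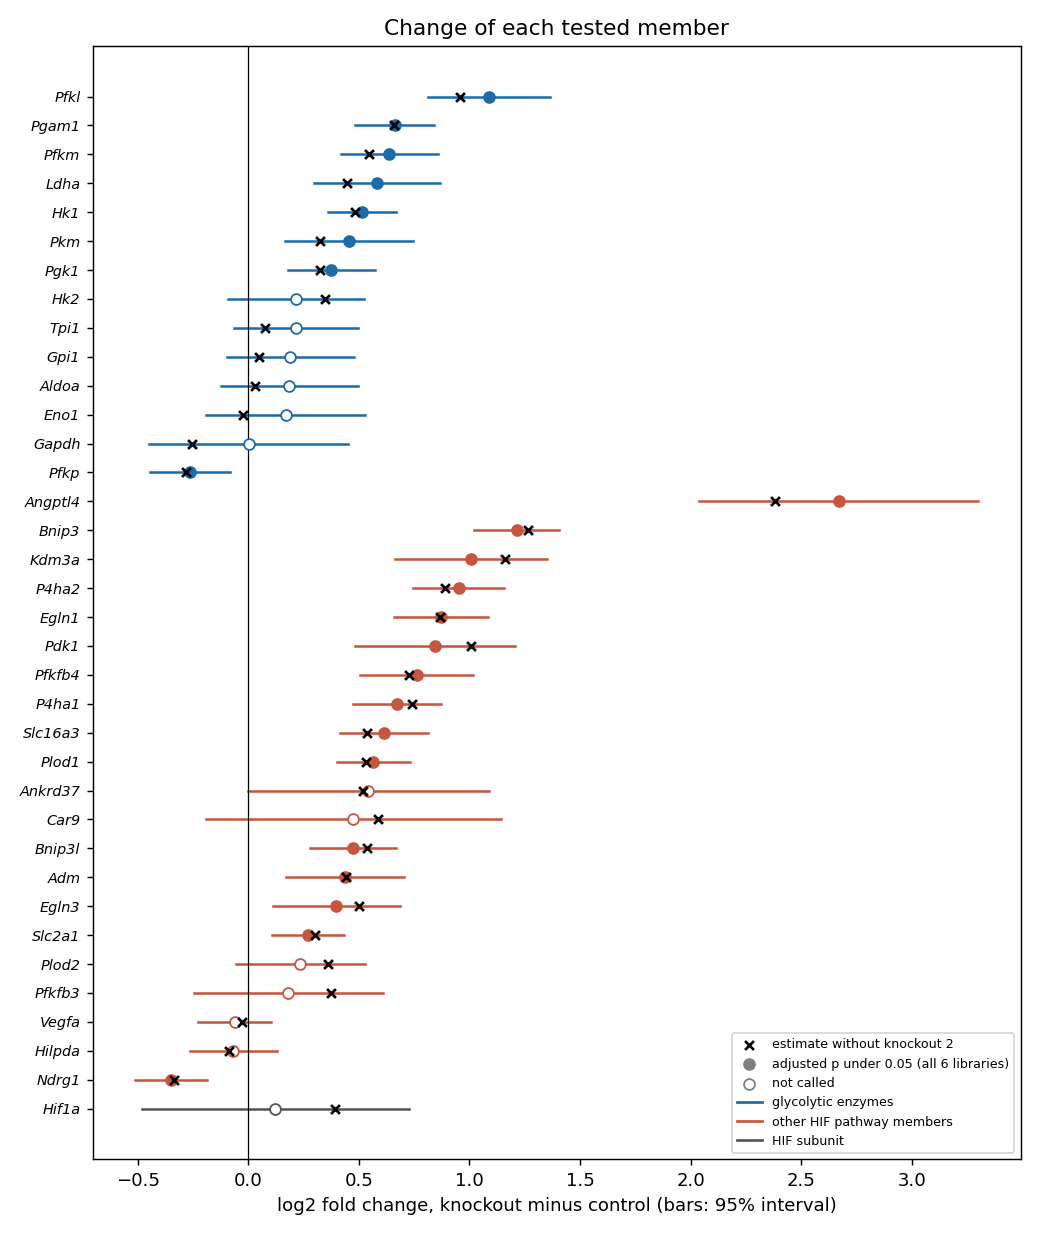
Log2 fold change of each tested gene, knockout minus control, with its 95% interval. Filled circles passed an adjusted p of 0.05, open circles did not, and crosses are estimates without knockout 2. Angptl4 (2.67) and Bnip3 (1.21) lie far to the right among other pathway members and Pfkl (1.09) among the enzymes, while Pfkp and Ndrg1 lie left of 0.

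Separation of the libraries followed the same order. In 23 of the 36 genes every knockout library lay above every control, and in 2 every knockout lay below. Across all tested genes, those shares were 24.8% and 26.5%. In 15 of the 36 the rise was called in every setting that tested them, among 17 settings. Of these, 4 were enzymes (Hk1, Pfkl, Pfkm and Pgam1) and 11 were other pathway members. The share of all tested genes called in every setting was not counted, so how unusual this is cannot be told. None of the 36 was called in opposite directions in different settings.

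**Figure D2:**
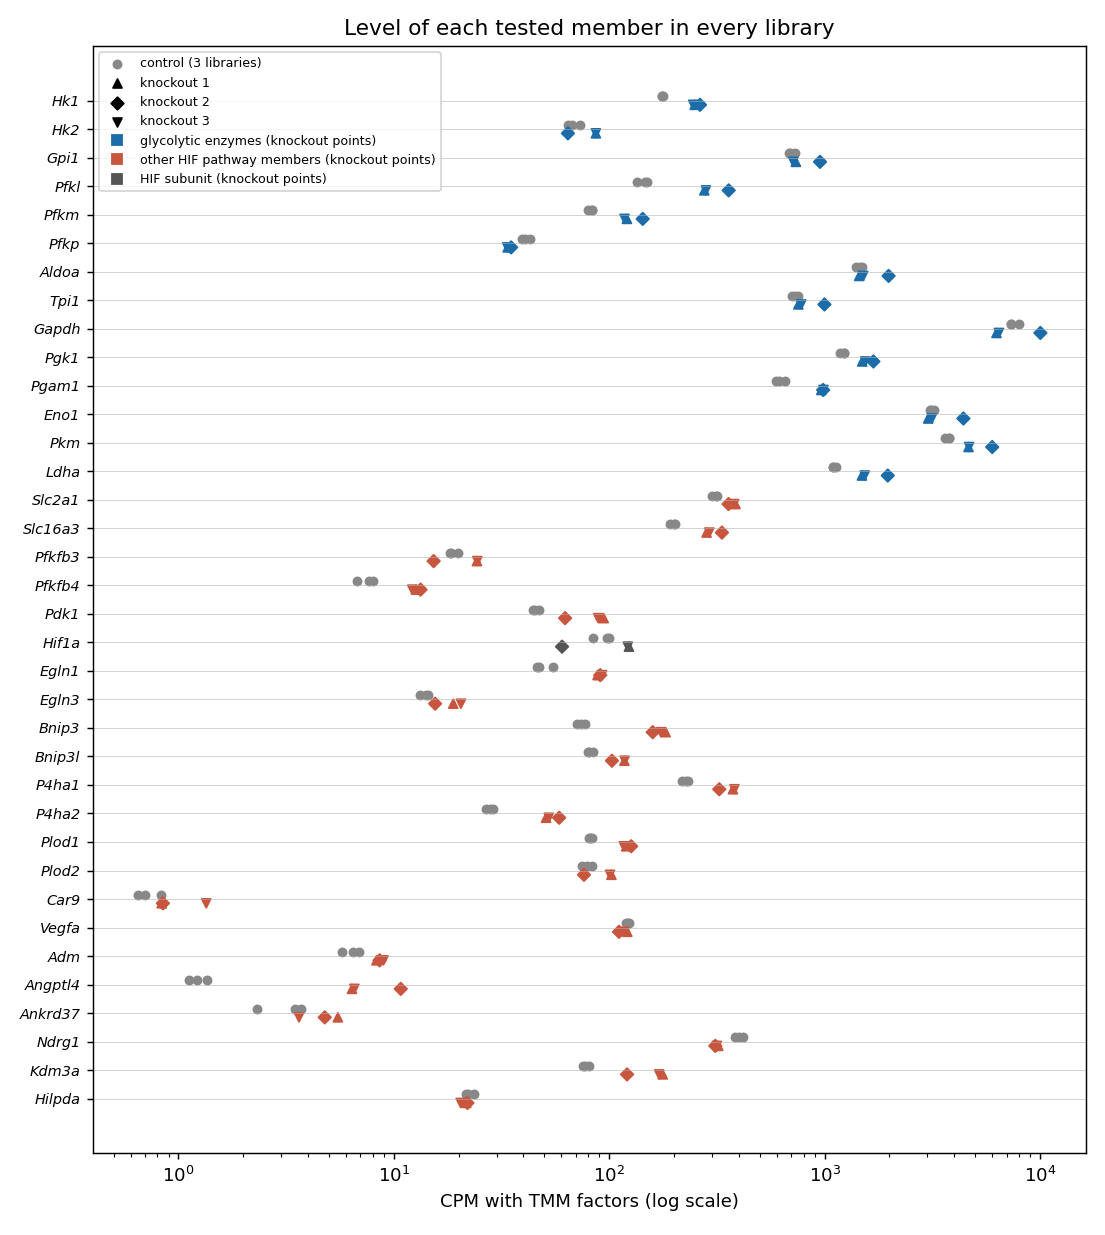
CPM in each library (log scale) for the 36 tested genes, with grey circles for the 3 controls and triangles and diamonds for the 3 knockouts. Control points lie close together in most rows, while the diamond of knockout 2 is set to the right for Gapdh, Eno1 and Aldoa and to the left for Hif1a, Pdk1 and Kdm3a.

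Glucose is first trapped by hexokinase. Hk1, the widely expressed isoform (gene 15275, GRCm38 chromosome 10, 62268855 to 62379920), was at 176, 178 and 177 CPM in controls 1 to 3 and at 249.5, 264 and 245 CPM in knockouts 1 to 3. The groups were well separated, and Hk1 rose 1.43-fold (log2 fold change 0.51, SE 0.0664, edgeR adjusted p = 0.00127). Hk2, the isoform more often tied to HIF and to tumours, was not called (0.22, adjusted p = 0.234). It stood at 86.7 CPM in both knockouts 1 and 3 but at 64.3 CPM in knockout 2, inside the control range of 64.3 to 73.2. Without knockout 2 the Hk2 difference was 0.35 (adjusted p = 4.88e-06). Hk1 supplied 78.8% ± 1.24 of hexokinase transcripts in controls and 82.1% ± 2.75 in knockouts on the TPM scale, which is per transcript length (SD, n = 3 each).

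Phosphofructokinase, which commits sugar to glycolysis, is built from liver, muscle and platelet subunits. Pfkl, the liver subunit gene (gene 18641, chromosome 10, 77986947 to 78009807), had the largest rise among the 14 enzymes. It was at 147, 150 and 134 CPM in the controls and 276, 359 and 281 CPM in the knockouts, a 2.13-fold rise (log2 fold change 1.09, SE 0.118, edgeR adjusted p = 0.000703). Pfkm, the muscle subunit gene (gene 18642, chromosome 15, 98092589 to 98132447), went from 82.8, 82.8 and 79.8 CPM to 121, 143 and 118 CPM. Neither gene's groups overlapped, and Pfkm rose 1.56-fold (0.64, SE 0.0931, adjusted p = 0.00218). Pfkp, the platelet subunit gene (gene 56421, chromosome 13, 6579874 to 6649060), moved the other way, from 42.7, 39.4 and 40.8 CPM to 33.8, 35.0 and 33.6 CPM. It fell 1.20-fold (-0.26, SE 0.0772, adjusted p = 0.0343), the least secure of these 3 calls, since it was kept in 7 of 17 settings.

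In transcripts per length, summed phosphofructokinase was higher in every knockout library than in any control, and its makeup differed. The 3 isoforms summed to 118, 114 and 111 TPM in controls and to 209, 199 and 204 TPM in knockouts. Pfkl supplied 48.5%, 49.5% and 47.1% of that sum in controls and 58.1%, 61.1% and 59.1% in knockouts, without overlap. The Pfkp share was 14.9% ± 0.795 in controls and 7.43% ± 0.835 in knockouts (SD, n = 3 each). No test was run on these sums and shares.

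**Figure D3:**
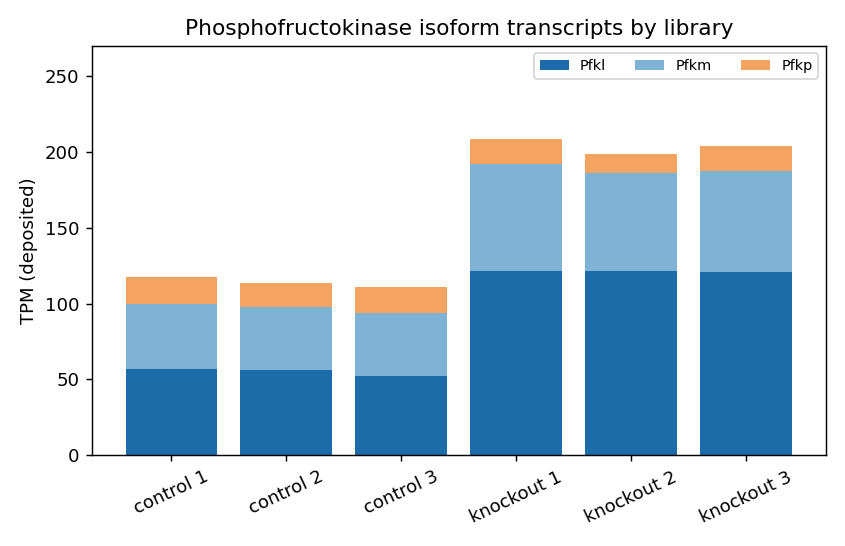
TPM of Pfkl, Pfkm and Pfkp, stacked for each library. The 3 knockout bars reach 199 to 209 TPM against 111 to 118 in the controls, with a taller Pfkl segment and a Pfkp segment of similar height.

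The HIF pair binds a short core, ACGTG or GCGTG, and the 250 bases upstream of the RefSeq starts (GRCm38.p6) were searched for these letters on both strands. Promoter entries matched 33 of the 38 genes. The printed 4 belong to 2 genes that rose more than 2-fold, 1 that fell and 1 that was not called, and capitals mark every match on either strand. A CACGTG, which holds ACGTG on both strands, appears once in Bnip3.
Bnip3, chr7:138909507-138909756, minus strand, called higher: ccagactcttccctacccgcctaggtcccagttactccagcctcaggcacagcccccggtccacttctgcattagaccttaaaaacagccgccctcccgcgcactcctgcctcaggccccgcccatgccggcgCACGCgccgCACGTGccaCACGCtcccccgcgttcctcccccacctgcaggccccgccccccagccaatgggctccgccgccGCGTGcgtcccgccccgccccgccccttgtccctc
Pfkl, chr10:78009808-78010057, minus strand, called higher: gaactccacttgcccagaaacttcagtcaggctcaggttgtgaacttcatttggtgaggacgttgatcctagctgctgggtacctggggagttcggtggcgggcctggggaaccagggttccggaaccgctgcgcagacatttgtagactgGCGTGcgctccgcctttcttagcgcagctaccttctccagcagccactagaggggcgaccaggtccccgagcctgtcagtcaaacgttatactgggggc
Pfkp, chr13:6648772-6649021, minus strand, called lower: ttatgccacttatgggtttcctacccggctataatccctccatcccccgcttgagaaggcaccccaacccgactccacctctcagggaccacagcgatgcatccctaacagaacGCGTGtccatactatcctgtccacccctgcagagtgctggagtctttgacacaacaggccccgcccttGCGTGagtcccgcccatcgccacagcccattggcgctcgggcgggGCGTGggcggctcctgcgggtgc
Gapdh, chr6:125165774-125166023, minus strand, not called: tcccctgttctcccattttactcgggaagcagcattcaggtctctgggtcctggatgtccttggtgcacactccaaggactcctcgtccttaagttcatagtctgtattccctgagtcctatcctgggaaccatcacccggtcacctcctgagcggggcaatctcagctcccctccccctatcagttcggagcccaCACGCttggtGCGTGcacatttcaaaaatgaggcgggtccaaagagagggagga

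These letters were common. With an entry for only 1 fallen gene, whether they sort the genes by direction could not be told. At least 1 window held ACGTG or GCGTG in all 19 risen genes with an entry, in the 1 fallen gene with an entry (Pfkp) and in 10 of 12 genes not called. Among all tested genes with an entry, 5818 of 9368 (62.1%) held one. By window, ACGTG was present in 23 of 49 member windows (46.9%) and in 21.8% of windows of tested genes, and GCGTG in 51.0% and 44.8%. CACGTG, which the ACGTG counts include, was present in 10.2% and 8.08%. The members were gathered partly as known HIF targets, a match is not a site, and binding was not measured.

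The isomerase before phosphofructokinase, and the aldolase and triose-phosphate isomerase after it, showed small differences that were not called. Gpi1, the glucose-6-phosphate isomerase gene, differed by 0.19, the aldolase gene Aldoa by 0.19 and Tpi1, encoding triose-phosphate isomerase, by 0.22 on the log2 scale (edgeR adjusted p = 0.261, 0.303 and 0.199). Tpi1 was at 727, 748 and 707 CPM in controls and 755, 998 and 779 CPM in knockouts. Its groups did not overlap, but knockout 2 was far above the other 2. Without knockout 2 the differences of Gpi1, Aldoa and Tpi1 were 0.05, 0.03 and 0.08 (edgeR adjusted p = 0.348, 0.529 and 0.118).

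Gapdh, the glyceraldehyde-3-phosphate dehydrogenase gene and a frequent reference gene, had the largest standard error among the enzymes. It was at 7367, 8028 and 7340 CPM in controls and at 6280, 10040 and 6445 CPM in knockouts, so knockouts lay on both sides of the controls (log2 fold change 0.00, SE 0.192, edgeR adjusted p = 0.996). Without knockout 2 the value was -0.25 (adjusted p = 3.76e-05). When each library's trends with transcript GC content and length were also taken out it was -0.05 (adjusted p = 0.24). A direction for Gapdh therefore depends on the libraries and on that correction.

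In the pay-off phase, 4 genes rose. Pgam1, encoding phosphoglycerate mutase (gene 18648, chromosome 19, 41911871 to 41918665), was at 652, 592 and 613 CPM in controls and at 966, 985 and 987 CPM in knockouts. All 3 knockouts were alike, and Pgam1 rose 1.58-fold (0.66, SE 0.0760, edgeR adjusted p = 0.000796). Ldha, the lactate dehydrogenase A gene, was at 1110 ± 21.3 CPM in controls and 1663 ± 262 CPM in knockouts (SD, n = 3 each), and rose by 0.58 on the log2 scale (edgeR adjusted p = 0.00941). Pkm, the pyruvate kinase gene, rose 1.37-fold from 3730 ± 89.1 CPM (adjusted p = 0.0264) and Pgk1, encoding phosphoglycerate kinase, rose 1.30-fold from 1213 ± 27.3 CPM (adjusted p = 0.0121). Leaving out any one control ended the calls of Pgk1 (adjusted p = 0.0556 to 0.0728) and Pkm (0.0953 to 0.108), and leaving out control 3 ended that of Ldha (0.0502). Eno1, the enolase gene, was at 3079, 3206 and 3129 CPM in controls and at 3026, 4408 and 3147 CPM in knockouts. Knockout 2 alone stood far above (log2 fold change 0.17, edgeR adjusted p = 0.424), and Eno1 was called higher in 5 of 17 settings.

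Weighted by abundance the enzymes were a larger part of the transcriptome in the knockout. The 14 together took 1.958%, 1.997% and 1.964% of all TPM in controls and 2.24%, 2.47% and 2.24% in knockouts. Without Gapdh, by far the most abundant, the other 13 took 1.06% ± 0.0114 in controls and 1.38% ± 0.00464 in knockouts (SD, n = 3 each), with no overlap and no test run. In bulk RNA, a change per cell and a change in which cells are present cannot be told apart.

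Of the 3 glucose and lactate transporters among the 38 genes, 2 were tested and both rose. Slc16a3, the lactate exporter MCT4 (gene 80879, chromosome 11, 120948484 to 120959000), was at 202, 201 and 191 CPM in controls and 283, 334 and 292 CPM in knockouts. The groups did not overlap and Slc16a3 rose 1.53-fold (0.61, SE 0.0849, edgeR adjusted p = 0.00172). Slc2a1, the glucose transporter GLUT1, went from 318, 301 and 314 CPM to 386, 358 and 380 CPM. It rose 1.20-fold (0.27, SE 0.0699, adjusted p = 0.0219), and the call held in 9 of 17 settings. Slc2a3, the glucose transporter GLUT3, had 5 counts over the 3 controls (95% Poisson interval 1.62 to 11.7) and 0 over the knockouts, too few for a comparison.

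Among the regulatory kinases, Pdk1 and Pfkfb4 rose. Pdk1, which inhibits pyruvate dehydrogenase and so keeps pyruvate out of mitochondria (gene 228026, chromosome 2, 71873215 to 71903858), was at 47.3, 45.2 and 44.4 CPM in controls and 94.3, 62.4 and 88.9 CPM in knockouts. All knockouts were above all controls, with knockout 2 the nearest, and Pdk1 rose 1.79-fold (0.84, SE 0.154, edgeR adjusted p = 0.0057). Pfkfb4, a bifunctional enzyme that sets the level of the phosphofructokinase activator fructose-2,6-bisphosphate, was at 8.04, 6.75 and 7.71 CPM in controls and 12.7, 13.3 and 12.2 CPM in knockouts. Pfkfb4 rose 1.70-fold (0.76, SE 0.109, adjusted p = 0.00192), and its relative Pfkfb3 was not called (0.18, adjusted p = 0.467). It was at 24.3 and 24.4 CPM in knockouts 1 and 3 and at 15.3 CPM in knockout 2, on either side of the controls at 18.3 to 19.9, and was 0.37 higher without knockout 2 (adjusted p = 0.000155).

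Hif1a (gene 15251, chromosome 12, 73901324 to 73947554) did not give a called difference. It was at 97.4, 84.0 and 99.7 CPM in controls and at 124, 60.4 and 122 CPM in knockouts (0.12, SE 0.257, edgeR adjusted p = 0.74). Knockouts 1 and 3 were above every control and knockout 2 below every control. Without knockout 2 the difference was 0.39 (adjusted p = 1.54e-06), and 0.16 (adjusted p = 0.00459) when length and GC trends were removed as well.

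Both oxygen-sensing hydroxylases, which are HIF targets and mark HIF for destruction, rose. Egln1 (gene 112405, chromosome 8, 124908587 to 124949254) was at 55.0, 47.3 and 46.2 CPM in controls and 88.3, 90.9 and 92.5 CPM in knockouts. Knockout 2 sat with the others, and Egln1 rose 1.83-fold (0.87, SE 0.0899, edgeR adjusted p = 0.00055). Egln3 went from 14.1, 13.2 and 14.4 CPM to 18.9, 15.6 and 20.5 CPM, a 1.32-fold rise (0.40, SE 0.122, adjusted p = 0.0406) called in 10 of 17 settings.

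The mitophagy receptors, outer-membrane proteins that tag mitochondria for removal, both rose. Bnip3, whose promoter is printed above (gene 12176, chromosome 7, 138890836 to 138909506), was at 77.3, 74.1 and 71.1 CPM in controls and 183, 159 and 174 CPM in knockouts. All 3 knockouts were far above the controls, and Bnip3 rose 2.32-fold (1.21, SE 0.0820, edgeR adjusted p = 9.16e-05), the smallest adjusted p of all 36. Bnip3l, also called NIX, went from 80.2, 84.1 and 79.5 CPM to 118, 103 and 118 CPM and rose 1.39-fold (0.47, SE 0.0823, adjusted p = 0.00437).

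Of 4 collagen hydroxylase genes, 3 rose. P4ha1 and P4ha2 encode the catalytic subunits of prolyl 4-hydroxylase, which stabilises the collagen triple helix. P4ha2 was at 26.9, 28.0 and 28.8 CPM in controls and 50.9, 58.6 and 52.4 CPM in knockouts, and rose 1.93-fold (0.95, SE 0.0879, edgeR adjusted p = 0.000355). P4ha1, the more abundant, went from 232, 219 and 228 CPM to 375, 324 and 381 CPM (log2 fold change 0.67, SE 0.0851, adjusted p = 0.0012). The lysyl hydroxylase gene Plod1 was at 80.5, 83.6 and 81.3 CPM in controls and 120, 127 and 117 CPM in knockouts (0.57, SE 0.0702, adjusted p = 0.0011). None of these 3 overlapped between groups. Fibroblast markers, which include collagen genes, moved in both directions, and of 8 listed, 5 were tested. Dcn, Pdgfrb and Lum fell, Pdgfra was not called, and Col3a1 rose from 1260 ± 76.3 to 2517 ± 353 CPM. The median log2 fold change of the 5 was -1.90 and the lowest was -4.57. The summed level of all 8 markers, mostly Col3a1, was 1639 to 1798 CPM in controls and 2283 to 2932 CPM in knockouts. That sum therefore mainly follows Col3a1 and hides the markers that fell. Col1a1, Col1a2 and Thy1 were near 0 in both groups. The part of fibroblast markers in the rises of the collagen hydroxylase genes was not tested. Plod2, whose lysyl hydroxylase prepares collagen for cross-linking, was not called (0.24, adjusted p = 0.177), with knockout 2 at 76.4 CPM inside the control range and knockouts 1 and 3 at 102 and 101.2 CPM, and it was 0.36 higher without knockout 2 (adjusted p = 9.26e-07).

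Secreted products of the programme did not move as one. Angptl4, a lipoprotein lipase inhibitor (gene 57875, chromosome 17, 33774900 to 33781575), was at 1.22, 1.12 and 1.36 CPM in controls and 6.40, 10.8 and 6.56 CPM in knockouts. Its 6.36-fold rise (2.67, SE 0.269, edgeR adjusted p = 0.000547) was the largest among the 36, from a low level. Adm, encoding the vasoactive peptide adrenomedullin, went from 6.88, 5.74 and 6.47 CPM to 8.31, 8.60 and 8.96 CPM (0.44, SE 0.114, adjusted p = 0.022). The Adm call held in 11 of the 16 settings that tested it, and was lost in both limma fits and without control 2, control 3 or knockout 3 (adjusted p = 0.0545 to 0.0988). Vegfa, the vascular growth factor gene and the best known HIF product, was at 122, 120 and 124 CPM in controls and 121, 111 and 118 CPM in knockouts. That difference was not called (-0.06, 95% interval -0.22 to 0.10, adjusted p = 0.526).

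The remaining HIF targets split. Kdm3a, a histone H3 lysine 9 demethylase, was at 80.9, 75.4 and 76.9 CPM in controls and 177, 121 and 171 CPM in knockouts, and rose 2.01-fold (1.01, SE 0.146, edgeR adjusted p = 0.00217). Ndrg1, a stress-responsive gene that hypoxia usually raises, fell instead, from 386, 420 and 401 CPM to 321, 311 and 316 CPM (1.27-fold, -0.35, SE 0.0692, adjusted p = 0.00753). The 3 Ndrg1 knockout values lay close together and below every control, and the call was lost without control 2 (adjusted p = 0.0504) and in both limma fits. Hilpda, a lipid droplet protein gene, was at 22.1, 23.5 and 21.5 CPM in controls and 21.7, 22.0 and 20.4 CPM in knockouts (-0.07, 95% interval -0.26 to 0.13, adjusted p = 0.565). Ankrd37 was not called (0.54, adjusted p = 0.109), but it was called higher without knockout 2 (0.52, edgeR adjusted p = 0.025). Its exons overlap Ufsp2 and Lrp2bp on the other strand, whose reads could not be told apart from its own.

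The acid-handling carbonic anhydrases were barely transcribed. Car9, often used as a hypoxia marker, was at 0.699, 0.651 and 0.831 CPM in controls and 0.837, 0.847 and 1.35 CPM in knockouts. It had 37 counts over the controls and 51 over the knockouts, and the difference was not called (0.47, 95% interval -0.19 to 1.14, edgeR adjusted p = 0.231). Car12 had 1 count in each group.

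In knockout 2 most enzymes lay above knockouts 1 and 3. They lay a median of 0.36 higher in it on the log2 CPM scale, above both other knockouts in 12 of 14 genes. The 21 other pathway members lay a median of 0.10 lower, above both in 6 and below both in 11. Over all 11656 tested genes the median offset was 0.02, with 5545 above both and 5088 below both. The difference between the 2 classes in this offset was not tested. Over the 36 genes its offset ran with transcript GC content (Pearson r 0.58) and against log2 transcript length (r -0.52), as over all tested genes (0.44 and -0.42), which describes 1 library only. With per-library trends in length and GC removed the enzymes were a median of 0.09 higher and the others 0.15 lower. Enzymes then lay above both other knockouts in 9 genes and below both in 4. The other pathway members lay above both in 3 and below both in 16. Over all tested genes these counts were not made with the trends removed, so how unusual they are cannot be told. Some genes moved further from the other knockouts, such as Slc2a1 (-0.10 before and -0.49 after). In that fit 26 of the 36 rose and 2 fell, against 23.9% and 24.8% of all tested genes, and 11 of the 14 enzymes rose, Aldoa, Tpi1, Gpi1 and Eno1 among them. Without knockout 2, 26 rose and 3 fell, against 34.6% and 35.0% of all tested genes. With both steps together, 31 rose and 2 fell, against 34.2% and 34.3%.

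Leaving out a control made calls rarer overall but left many of these genes called. Without control 1, 17 rose and 1 fell, against 9.42% and 12.4% of all tested genes. Without control 2, 16 rose and 0 fell, against 8.79% and 11.6%. Without control 3, 15 rose and 1 fell, against 8.91% and 11.5%. DESeq2 called 21 higher and 2 lower, against 16.2% and 17.4% of all genes it tested. By limma on log2(TPM + 1), 22 rose and 0 fell, against 13.5% and 14.7%, and the fallen call of Ndrg1 was among those lost.

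**Figure D4:**
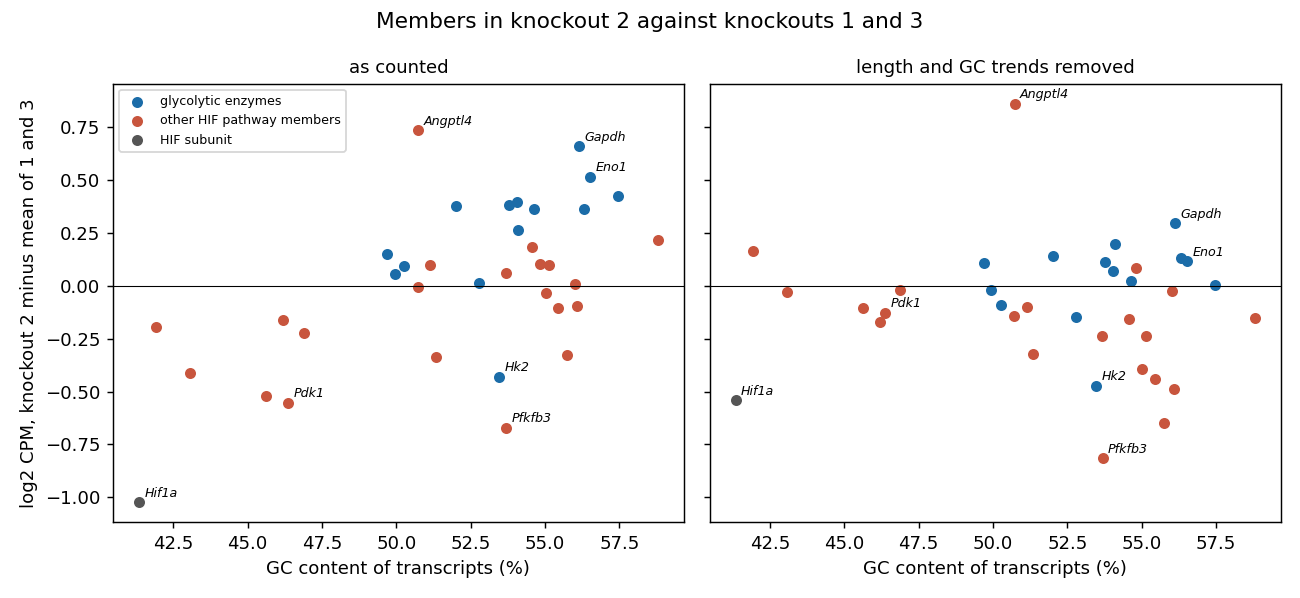
Offset of knockout 2 from the mean of knockouts 1 and 3 (log2 CPM) against GC content of each gene's transcripts, as counted (left) and with length and GC trends removed (right). On the left Hif1a sits at -1.02 and Gapdh at 0.66, and on the right the enzymes gather nearer to 0.

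The median change differed between chromosomes, which bears on small changes. The median gene was 0.16 lower on chromosome 6 (Hk2, Tpi1, Gapdh, Kdm3a, Hilpda and Slc2a3), 0.13 higher on the X chromosome (Pgk1) and 0.11 higher on chromosome 10 (Hk1, Pfkl and P4ha1). The part of this in the changes of those genes was not tested.

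Neighbouring pathways did not all follow, and their counts stand beside the 17.1% of all tested genes that rose and the 18.5% that fell. Of 26 tested further HIF targets, 11 rose, 4 fell and 11 were not called (median 0.31). Stc2, a secreted glycoprotein gene, fell from 42.6 ± 3.28 to 13.8 ± 0.107 CPM (-1.63, edgeR adjusted p = 5.38e-05) and Hmox1, encoding heme oxygenase 1, fell from 198 ± 7.16 to 79.7 ± 4.41 CPM (-1.32, adjusted p = 5.63e-05). The histone demethylase gene Kdm4b rose from 22.4 ± 0.871 to 42.8 ± 0.882 CPM (0.93, adjusted p = 0.000254, n = 3 each). Of 7 tested HIF subunits and oxygen-sensing genes, 2 rose, 0 fell and 5 were not called. The hydroxylase Egln2, which is not usually counted among HIF targets, rose from 30.2 ± 1.02 to 54.3 ± 5.17 CPM (0.85, edgeR adjusted p = 0.000732, n = 3 each), and the coactivator Crebbp rose by 0.74 (adjusted p = 0.00375).

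Lists outside the core pathway had medians at or below 0. Of 12 tested further glycolytic and gluconeogenic isozymes, 2 rose, 5 fell and 5 were not called (median -0.02). The share that rose was near that of all tested genes. The share that fell was larger than the 18.5% of all tested genes, a difference that was not tested. Hkdc1, a hexokinase-like gene, rose from 1.18 to 3.74 CPM (1.66, edgeR adjusted p = 0.000561), while Adpgk, an ADP-dependent glucokinase, fell by 0.74 (adjusted p = 0.000714) and Tigar, a fructose-2,6-bisphosphatase, fell by 0.77 (adjusted p = 0.000772). Of 8 pentose phosphate genes, 2 rose (Pgd by 0.39 and H6pd by 0.22, adjusted p = 0.0184 and 0.0416), 0 fell and 6 were not called (median -0.19). Of 27 tested pyruvate dehydrogenase and citric acid cycle genes, 3 rose, 3 fell and 21 were not called (median -0.16), a smaller share each way than over all tested genes. The phosphatase Pdp2 (1.07, adjusted p = 0.000605) and the kinase Pdk2 (0.64, adjusted p = 0.00663), which act oppositely on pyruvate dehydrogenase, rose, and its subunit gene Pdhb fell (-0.43, adjusted p = 0.00843). Of 4 other tested glucose and monocarboxylate transporters, 0 rose, 2 fell (Slc2a8 at -0.59 and Slc2a6 at -0.45, adjusted p = 0.0116 and 0.0381) and 2 were not called.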

How the data were processed

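The deposited table gives expected counts, FPKM and TPM per gene and library, per the file headers. The deposited read counts are estimated, or expected, counts, since 88.9% are whole (within 1e-9), and were rounded. The deposited TPM and FPKM were made by the authors, and FPKM was not used. HISAT2, StringTie, SAMtools and GRCm38.p6 are named in the submitters' processing notes, without versions. The sources used here do not say how reads with several matches were assigned, and Gapdh, Eno1, Pgk1, Ldha and other abundant enzymes have processed pseudogenes. The library kit is not stated to mark strand, and exons of 6 members (Aldoa, Ankrd37, Gapdh, Pfkm, Pfkp and Tpi1) overlap a protein-coding gene on the other strand in GENCODE M21. Groups follow the sample titles.

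Genes passing filterByExpr (minimum count 10, total 15, smallest group 3) were compared with edgeR 4.0.16 in R 4.3.3 (TMM scaling, robust quasi-likelihood test, two-sided). P-values were adjusted by Benjamini-Hochberg over all 11656 genes, and genes under 0.05 are described as risen or fallen. CPM carry TMM factors, ± is the SD over 3 libraries, and fold changes are fitted. Intervals from counts cover 95% of counting error only. The members, classes, pathway lists and tests were chosen with earlier results of these data known. Every member is named, with values per library for Hif1a, the 3 phosphofructokinases and up to 3 called genes of each role with the smallest adjusted p, and other values were added after they were seen. From each pathway list, up to 3 called genes are named. Pathway genes that were not in the table were not analysed here.

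Transcript length and GC content are medians over protein-coding GENCODE M21 transcripts and were known for 98.0% of tested genes. Each transcript counted equally, whether or not it was expressed, and some medians were short (Hk1 581 and Pkm 725 bases). The trend removal rests on these values. Alternatives were RLE scaling, no filter, a mean of at least 10 CPM, DESeq2 1.42.0, limma 3.58.1 on log2(TPM + 1) or log2(TPM + 0.1) for genes at a mean of at least 1 TPM, a replicate block, removal of length and GC trends by natural-spline offsets, and leaving out each library. Removing the trends without knockout 2 was added after seeing the data. The edgeR and DESeq2 fits were tested on simulated data with no library standing apart and no length or GC trends. That test therefore does not cover the behaviour of knockout 2. Promoter sequences are from RefSeq (GRCm38.p6).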

Additional observations from a re-analysis of the deposited data

How the results depend on the processing

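The count of risen members kept within 1.5 times of 21 in every alternative run, from 15 without control 3 to 31 without knockout 2 and with length and GC trends removed. The count of fallen members, 2, was less stable: 1 with no filter, 0 by limma at either pseudocount, 1 with the replicate block, with or without length and GC trends removed, and 0 to 3 when 1 library was left out. Fallen enzymes, 1 (Pfkp), were 0 with no filter, by limma at either pseudocount and with the replicate block, with or without the trends removed, and 0 to 2 with 1 library left out. Risen enzymes, 7, were 11 by limma at either pseudocount and with the trends removed, block or not, 12 with the trends removed and without knockout 2, and 4 to 8 with 1 library left out. Fallen other pathway members, 1 (Ndrg1), were 0 by limma at either pseudocount and 0 to 1 with 1 library left out. Over all genes, leaving out 1 library gave 1036 to 4075 risen and 1358 to 4133 fallen, and 4037 and 4040 without knockout 2 and with the trends removed. The cause was not tested.

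Signs turned only for genes that were not called with all 6 libraries. Gapdh (0.00) was -0.00024 with RLE scaling, -0.0024 at a mean of 10 CPM, -0.032 with the replicate block, -0.25 to 0.12 with 1 library left out, and -0.047 without knockout 2 and with the trends removed. Eno1 was -0.024 to 0.27 with 1 library left out, lowest without knockout 2. Hif1a was -0.016 with the replicate block and the trends removed, and -0.037 to 0.39 with 1 library left out (-0.028 without knockout 3). Vegfa was 0.038 with the trends removed, 0.025 with the block added, and 0.17 without knockout 2 and with the trends removed (adjusted p = 0.00163). Hilpda was 0.0062, 0.0035 and 0.083 in the same 3 settings.

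Whether replicate numbers pair the samples could not be told from 3 libraries per group with knockout 2 standing apart. Deviations of same-numbered libraries correlated at 0.16, 0.26 and 0.04, and control 1 correlated with knockout 3 at 0.19. With the replicate block 22 members rose and 1 fell, against 18.0% and 19.2% of all tested genes.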
